A study of Homo sapiens with 9 samples.

Results

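The sites described here are TEAD peaks that stand alone and carry no p65. They were chosen by measured peak positions: a TEAD peak on chromosomes 1 to 22 or X, overlapped by no p65 peak in any of 4 p65 lists, and with no other TEAD peak within 12.5 kb, edge to edge. Of the 23460 TEAD peaks in the list, 23410 lay on those 23 chromosomes, and 7508 of them (32.1%, 95% Wilson interval 31.5 to 32.7) met the rule. The cells were 786-O, a human line established from a clear cell carcinoma of the kidney, and the assay was chromatin immunoprecipitation with sequencing. TEAD was profiled in cells treated with XMU-MP-1, which blocks MST1 and MST2, kinases at the head of the Hippo cascade. p65, the RELA subunit of NF-κB, was immunoprecipitated from cells given XMU-MP-1, cells given vehicle, cells labelled siTEAD4 (siTEAD in the treatment label) and control cells with no treatment label. Each of the 5 immunoprecipitates is 1 library, and the other 4 of the 9 libraries are input chromatin.

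TEAD proteins bind DNA but activate transcription poorly without a partner. The partners YAP and TAZ are held in the cytoplasm when the Hippo kinase cascade is active, and enter the nucleus when it is not, so inhibition of MST1 and MST2 is used to favour the nuclear form. YAP and TEAD act mostly at distal enhancers, often beside AP-1 factors. p65 also binds many enhancers and is released into the nucleus when inhibitory IκB proteins are degraded.

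The TEAD list exists for XMU-MP-1 treated cells, so nothing here compares TEAD between treatments. Since each condition is 1 library, differences cannot be set against replicate spread, and p-values are left out. The intervals reflect only how many peaks were counted, as if peaks were independent of one another. A site without a p65 peak is a site where none was called, not one shown to lack p65. The p65 lists held 1649 peaks with XMU-MP-1, 17958 with vehicle, 1813 in the list labelled siTEAD4 and 15465 in control cells. The peak identifiers of the list labelled siTEAD4 carry another name, p65_Vert, so its treatment rests on the sample label.

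Each condition of the rule was common among TEAD peaks. No p65 peak overlapped 14115 of the 23410 TEAD peaks, or 60.3%, and 11370, or 48.6%, had no other TEAD peak within 12.5 kb. The 2 conditions divide the TEAD peaks into 4 classes: 7508 solitary without p65, 3862 solitary with p65, 6607 crowded without p65 and 5433 crowded with p65, where crowded means another TEAD peak within 12.5 kb. Solitary peaks lacked p65 in 66.0% of cases (65.2 to 66.9), against 54.9% (53.99 to 55.8) of crowded peaks. The difference was 11.2 percentage points (95% normal-approximation interval 9.91 to 12.4).

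The absence of p65 from solitary sites rested almost wholly on the 2 lists of cells given neither siTEAD4 nor XMU-MP-1. Among the 11370 solitary TEAD peaks, 3.35% (3.04 to 3.70) had an XMU-MP-1 p65 peak and 28.9% (28.1 to 29.7) a vehicle one. A peak labelled siTEAD4 lay at 3.62% (3.30 to 3.98), and a control p65 peak at 25.8% (25.03 to 26.6). With the control and vehicle lists alone the rule would take 7516 sites, and with the XMU-MP-1 list alone, the p65 list of the same treatment as the TEAD list, 10989. A single p65 list accounted for 1477 of the solitary peaks with p65, while 1889 had a peak in 2 lists, 224 in 3 and 272 in all 4.

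The solitary sites without p65 were mostly weak to moderate peaks with a few very strong ones. The fold enrichment of a peak is the authors' own value, the summit over the local background, and was used here only within that list. Its median at the 7508 sites was 5.85, with quartiles at 4.76 and 8.01 and a range of 2.49 to 65.8. Solitary peaks with p65 had a median of 6.68, crowded peaks without p65 5.95 and crowded peaks with p65 7.57. The classes without p65 lay close together, and each class with p65 lay above both. A fold of 20 or more was reached by 188 of the 7508 sites (2.50%, 2.17 to 2.88), against 976 of the other 15902 TEAD peaks (6.14%, 5.78 to 6.52). In bulk chromatin, a weak peak in every cell and a strong peak in fewer cells cannot be told apart.

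**Figure D1:**
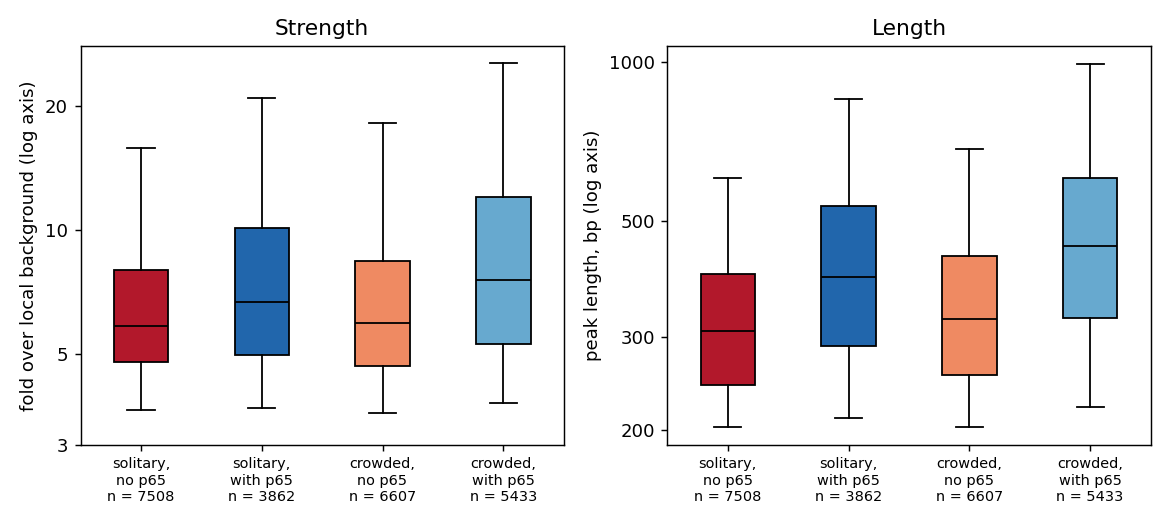
Fold over the local background (left, log axis) and peak length in bp (right, log axis) of the 4 classes of TEAD peaks; boxes span the quartiles with the median as a line, and whiskers the 5th to 95th percentiles of peaks. The 7508 solitary sites without p65 have the lowest median fold (5.85) and the shortest median length (308 bp) of the 4 classes.

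The sites were also the shortest TEAD peaks. Their median length was 308 bp, with quartiles at 244 and 395 bp, against 390 bp for solitary peaks with p65, 325 bp for crowded peaks without p65 and 448 bp for crowded peaks with p65. The shortest length in the list, 203 bp, was held by 602 of them (8.02%, 7.43 to 8.65) and by 125 of the solitary peaks with p65 (3.24%, 2.72 to 3.84). Crowded peaks without p65 came near the sites, with 450 at that length (6.81%, 6.23 to 7.44). The intervals of these 2 classes overlap only at their ends, which does not show that the shares are equal. Only 24 sites (0.32%) were longer than 1000 bp, against 264 crowded peaks with p65 (4.86%), the class with the longest median. Length went with fold among the 7508 sites (Spearman rho 0.52, as a description). At equal TEAD fold the difference was still present: in each of 10 deciles of fold the sites were shorter at the median than solitary peaks with p65, with differences in the median of -110.5 to -17 bp. Against crowded peaks without p65 they were shorter in 9 of 10 deciles, with differences of -47 to 2 bp over all 10. A longer peak has more bases on which a p65 peak can overlap it, so length and fold are not independent of the rule and are given with no test.

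Stronger TEAD peaks met the rule less often. Between 35.1% and 37.96% of the peaks in the 5 weaker deciles of fold were solitary and without p65, with overlapping intervals. In the 5 stronger deciles it was 33.3%, 30.9%, 28.3%, 25.4% and, in the strongest decile (folds of 14.7 to 79.6), 19.1% (17.6 to 20.8). Solitary peaks lacked p65 more often than crowded ones in all 10 deciles. The gap was 4.91 percentage points in the weakest decile, with 69.8% (67.1 to 72.3) of solitary and 64.9% (62.1 to 67.6) of crowded peaks lacking p65. In the strongest decile it was 14.3 points, with 50.2% (46.9 to 53.4) and 35.9% (33.4 to 38.4). Averaged over the deciles, the difference was 9.78 points (8.55 to 11.02).

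The share without p65 followed the distance to the next TEAD peak beyond the 12.5 kb limit as well. It was 54.2% (52.6 to 55.9) of the 3490 TEAD peaks with another within 1 kb and 53.1% (51.7 to 54.5) at 1 to 5 kb. It was 57.8% (56.2 to 59.3) just below the limit, at 5 to 12.5 kb, and 60.9% (59.1 to 62.6) just above it, at 12.5 to 25 kb. Beyond 250 kb it reached 78.7% (75.4 to 81.6) of 675 peaks. The intervals just below and just above the limit overlap only at their ends, which does not show that the shares are equal. At the same deciles of TEAD fold the shares were 54.8% within 1 kb, 58.3% just below the limit, 60.5% just above it and 78.3% beyond 250 kb. The strength of the peaks without p65 differed little with distance, and their median fold was 5.74 within 1 kb, 5.85 at 12.5 to 25 kb and 6.23 beyond 250 kb. Over the 7508 sites, fold and distance to the next TEAD peak had a rho of 0.02.

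**Figure D2:**
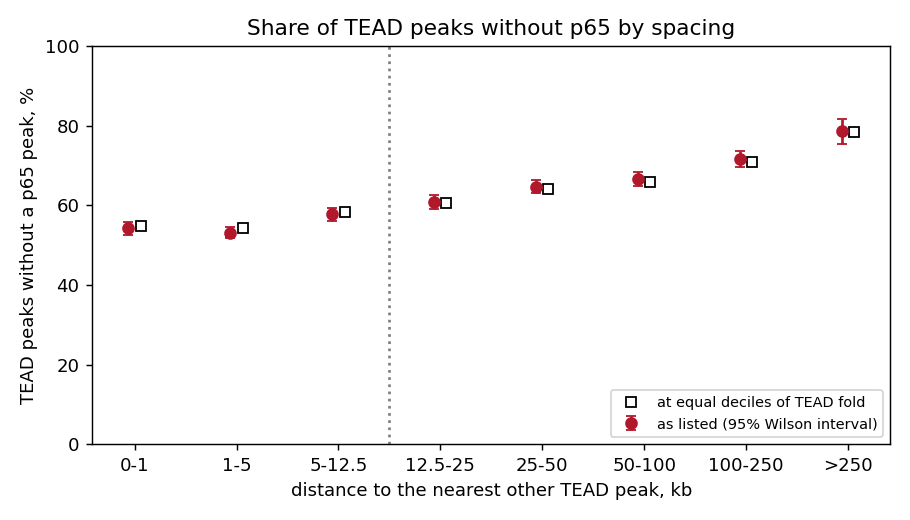
Share of TEAD peaks without a p65 peak in any of 4 lists (%) by distance to the nearest other TEAD peak (kb); filled circles are the shares with 95% Wilson intervals, open squares the shares at equal deciles of TEAD fold, and the dotted line the 12.5 kb limit. The share is 54.2% within 1 kb and 78.7% beyond 250 kb, and both sets of points lie close together.

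The surroundings of the sites held fewer p65 and TEAD peaks at the median than those of the other classes, with overlapping quartiles for p65. Part of this follows from the rule, which bars any other TEAD peak within 12.5 kb. Crowded peaks have another in that range by definition. Nearly all p65 peaks that overlap such TEAD peaks are kept out with them. Within 500 kb either side, counting no overlapping peak, the 7508 sites had a median of 8 vehicle p65 peaks (quartiles 4 and 13), solitary TEAD peaks with p65 had 10 (5 and 15), crowded ones without p65 had 11 and crowded ones with p65 had 13. Other TEAD peaks in the same range numbered 10 at the median site, 12 at solitary peaks with p65, 16 at crowded ones without p65 and 17 at crowded ones with p65. No vehicle p65 peak lay in that range at 334 sites (4.45%), against 66 (1.71%) solitary peaks with p65. The TEAD peaks were put in 5 bins, of 3823 to 5836 peaks, by the number of vehicle p65 peaks around them. In the lowest bin (0 to 5), 73.4% (72.0 to 74.8) of solitary and 68.1% (66.1 to 70.0) of crowded peaks lacked p65. In the highest bin, with 19 to 46 around them, 55.7% (53.0 to 58.4) and 44.7% (42.9 to 46.5) did. Averaged over the bins, the difference between solitary and crowded peaks was 7.98 percentage points. The local density of p65 thus moved with the result, and its part in it was not tested beyond this comparison.

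The nearest p65 peak of any list was 44.2 kb away at the median. A p65 peak of any list lay within 50 kb of 4061 of the 7508 sites (54.1%, 53.0 to 55.2), against 80.5% of all TEAD peaks, a figure that includes peaks p65 overlaps. Crowded TEAD peaks without p65 had one within 50 kb in 83.1% (82.2 to 84.0) of cases. The rule keeps other TEAD peaks out of the 12.5 kb around a site, and with them nearly all p65 peaks that overlap TEAD. Part of the difference in nearness therefore follows from the rule. The median distance from a site was 631 kb to an XMU-MP-1 p65 peak, 53.1 kb to a vehicle one, 541 kb to one labelled siTEAD4 and 61.0 kb to a control one. The order of these distances is that of the list sizes. Very near p65 peaks were few, and the rule had removed every site that one overlapped. Within 500 bp, 157 sites (2.09%, 1.79 to 2.44) had one of any list, against 508 crowded peaks without p65 (7.69%, 7.07 to 8.36). One of any list abutted 1 site, on chromosome 16 from 27338331 to 27338692. It was a control p65 peak, and the nearest vehicle one was 12.95 kb away. The share with a p65 peak within 50 kb lay between 51.2% and 58.4% in each decile of TEAD fold, and was 51.2% in the strongest.

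**Figure D3:**
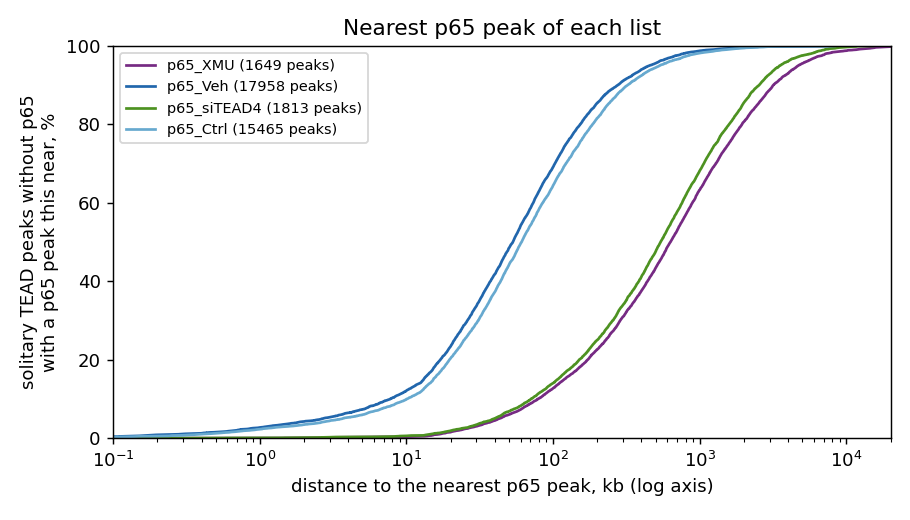
Cumulative share (%) of the 7508 solitary TEAD sites without p65 that have a p65 peak of each list within the distance on the log axis (kb); each line is 1 p65 list, with its number of peaks in the legend. The XMU-MP-1 and siTEAD4-labelled curves lie to the right of those of vehicle and control, and the vehicle and control curves bend upward near 12.5 kb.

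The bend near 12.5 kb in the plot of p65 distances follows from the rule. A p65 peak that overlaps another TEAD peak can come within 12.5 kb of a solitary site only by reaching past that TEAD peak, so below the limit nearly all p65 peaks counted are without TEAD. Without TEAD overlap and within 12.5 kb of a site there were 1188 vehicle and 974 control p65 peaks. How many of them had a peak in the treated lists is given as a description, with no test. The rule read the treated lists too. A neighbour whose treated peak reached the TEAD peak removed that site, which lowers these shares near the sites. Without the treated lists the rule took 7516 sites rather than 7508. Of the vehicle p65 peaks within 12.5 kb of a solitary site, 2.61% (1.84 to 3.68) had an XMU-MP-1 peak. The share was 5.08% (4.32 to 5.96) of the 2776 near another TEAD peak, 3.08% (2.67 to 3.56) of the 5770 with no TEAD peak within 12.5 kb, and 14.9% (14.2 to 15.7) of the 8185 overlapped by TEAD. Of the control p65 peaks near a solitary site, 5.24% (4.005 to 6.82) had a peak labelled siTEAD4. The share was 8% (6.95 to 9.19) of those near another TEAD peak, 4.81% (4.25 to 5.45) with none within 12.5 kb, and 17.3% (16.4 to 18.2) when overlapped. In both pairs the intervals for neighbours of solitary sites and for p65 peaks far from TEAD overlap. Between the 2 lists without siTEAD4 or XMU-MP-1, the share of control p65 peaks with a vehicle peak was 72.5% near a solitary site, 78.2% near another TEAD peak, 75.04% with none within 12.5 kb and 83.8% when overlapped. There too the share was highest for overlapped peaks and lower near a solitary site than near another TEAD peak. The median p65 folds of the 4 kinds of vehicle peak were 5.64, 5.69, 5.93 and 5.99 in the same order. At equal deciles of p65 fold the shares were 3.41%, 5.53%, 3.31% and 14.0% with XMU-MP-1.

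The summit heights behind these folds were low. From the deposited fold and p-value of each peak, the number of fragments stacked at its summit (the pileup) and the background it was set against can be solved, and a whole-number pileup was found for all 23410 TEAD peaks. The 7508 sites had a median of 15 fragments at the summit (quartiles 12 and 22, range 6 to 176) over a median background of 1.77 fragments. Solitary peaks with p65 had 19 over 1.90, crowded peaks without p65 had 17 over 1.87, and crowded peaks with p65 had 23 over 2.15. At the site of median fold, 5.85 (chromosome 1, 8805692 to 8806132), 13 fragments stood over a background of 1.39. The exact 95% Poisson interval of such a pileup is 6.92 to 22.2 fragments, which is wider than the distance between the quartiles of all sites. Amplified reads are not independent molecules, so this interval covers counting error only.

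The background took few values. At 943 sites (12.6%) it was the lowest value, 1.08 fragments, and at 3020 (40.2%) a whole multiple of 0.624 fragments, each to within 0.002. The lowest value was held by 5.54% of solitary peaks with p65, 5.21% of crowded peaks without p65 and 2.32% of crowded peaks with p65. The median background of TEAD peaks without p65 was 1.89 with another TEAD peak within 1 kb, 1.87 at 12.5 to 25 kb and 1.27 beyond 250 kb. Isolation and low background thus moved together, and the part of the background in the result was not tested.

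**Figure D4:**
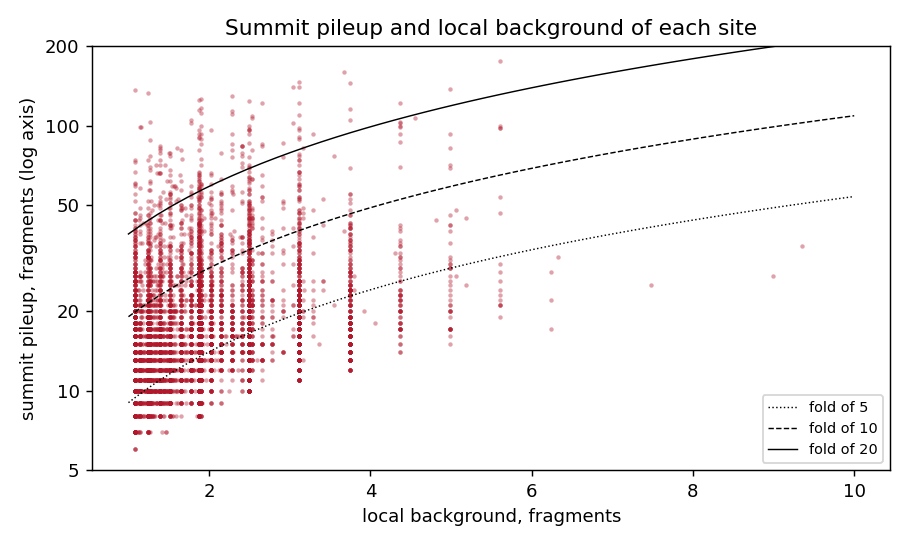
Summit pileup (fragments, log axis) against the local background (fragments) of each of the 7508 solitary TEAD sites without p65; each point is 1 site, and the lines mark folds of 5, 10 and 20. The points stand in columns because the background takes few values, and most lie below a pileup of 22 fragments.

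The 10 strongest sites had folds of 39.6 to 65.8 and summits of 99 to 136 fragments. The first lay on chromosome 11 from 17732500 to 17733494 (build hg19, as all positions here). Its fold was 65.8, with 136 fragments over a background of 1.08, and a Poisson interval of 114 to 161 fragments. It was 443 kb from the next TEAD peak and 535 kb from the nearest p65 peak, a control one of fold 5.08. The second, on chromosome 2 from 151267266 to 151267879, reached 59.6 and had a vehicle p65 peak of fold 4.86 at 6.24 kb. Its nearest control p65 peak was 110 kb away. The summits of both were many times higher than that of the median site, and their intervals do not overlap with its own. Both were picked for their fold, so this follows from the choice and is no test.

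Next in strength was a site on chromosome 10 at 71528959 to 71529616, of fold 46.7. It was followed by one on chromosome 11 at 75946375 to 75947292, of fold 46.5, and one on chromosome 15 at 26327081 to 26327782, of fold 45.9. The Poisson intervals of their pileups, 80.5 to 121, 80.5 to 121 and 84.1 to 125 fragments, overlap, so their order is not resolved. The site on chromosome 12 from 79940393 to 79941672 was 1280 bp long, with a fold of 43.9. Its neighbour in rank, on chromosome 4 from 102874944 to 102875558, was 615 bp long at a fold of 43.8, so length differed by more than 2 times at equal strength. The site on chromosome 14 at 60560842 to 60561464, of fold 40.4, lay 471 kb from the next TEAD peak. A control p65 peak of fold 4.65 was 0.605 kb from it, while the nearest vehicle one was 154 kb away. Of the 10, 4 had a p65 peak of any list within 50 kb and 6 had no other TEAD peak within 50 kb.

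The remaining 2 of the 10 sites lay on chromosome 6, from 28805736 to 28806512 (fold 40.7) and from 28863787 to 28864314 (fold 39.6). When the genome was cut into 1 Mb windows, the window that holds them, from 28000001 to 29000000, had the most sites of fold 20 or more, 5 of its 9. Of all 43 TEAD peaks in that window, 21 had such a fold. The window before it had 3 of 6 sites and 21 of all 64 TEAD peaks at that fold, so high folds were common among all TEAD peaks there. Windows with any such site numbered 176, and only 3 windows had 3 or more. Over both windows of chromosome 6, the 15 sites had a median fold of 22.4, against 5.85 at all 7508. Their distances to the next TEAD peak were 14.1 to 109 kb. Their background had a median of 2.49 fragments and reached 5.61, against a median of 1.77 at all sites. This stretch of 6p is known for a large cluster of histone and transfer RNA genes. It was rich in TEAD peaks in general, with 107 in all, and held 2 XMU-MP-1, 15 vehicle, 2 siTEAD4-labelled and 16 control p65 peaks. The third such window was on chromosome 11 from 69000001 to 70000000, where sites of fold 30.96, 29.8 and 21.8 lay at 69251785 to 69252330, 69311765 to 69312429 and 69379060 to 69379540. There 3 of 7 sites and 6 of all 24 TEAD peaks had a fold of 20 or more. That window held 4 XMU-MP-1, 20 vehicle, 3 siTEAD4-labelled and 21 control p65 peaks. These windows were chosen after their values were seen.

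Isolation was often far greater than the rule asks for. The median distance to the next TEAD peak was 46.6 kb, with quartiles at 24.8 and 98.6 kb, and 10% of the sites were more than 197 kb from any other. The most isolated site, on chromosome X from 85302475 to 85302697, was 3234 kb from the peak before it and 9011 kb from the peak after, at a fold of 5.77 and 11 fragments. The 4 next were on chromosome 3 from 90234047 to 90234340 (2851 kb, fold 9.61), chromosome 5 from 23720875 to 23721077 (2568 kb, fold 4.41), chromosome 6 from 94508992 to 94509276 (2459 kb, fold 4.89) and chromosome 13 from 91097324 to 91097814 (2393 kb, fold 23.1). The last is the only strong peak of the 5, with 47 fragments (34.5 to 62.5) over the lowest background. The others had 9 to 19.

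Just inside the spacing limit were sites with the next TEAD peak at 12505, 12511 and 12518 bp, with folds of 6.27, 3.31 and 5.02. Just outside were TEAD peaks without p65 at 12490, 12479 and 12479 bp, with folds of 4.88, 6.58 and 29.3, the last 2 being each other's neighbour on chromosome 18. The weakest sites by −log10 q, 4 at 1.34 and 1 at 1.37, had 8 fragments each over backgrounds of 1.87 to 1.90. The lowest −log10 q in the whole TEAD list was 1.34 as well.

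Consecutive sites formed long runs along some chromosomes. Neighbouring TEAD peaks share the gap between them, so the spacing limit by itself tends to place sites in runs. Whether the runs go beyond this was not tested. The 7508 sites fell into 3679 runs of neighbouring TEAD peaks, of which 1878 held 1 site, and 20.8% of sites lay in runs of 5 or more. The longest run was 19 consecutive sites on chromosome 5 from 78102498 to 83586368, over 5.48 Mb, with folds of 3.83 to 29.3 and a median of 7.52. The same span held no XMU-MP-1 p65 peak and 10 vehicle ones, and no peak labelled siTEAD4 and 8 control ones. In 374 of the 2480 windows of 1 Mb with a TEAD peak, every TEAD peak was such a site. Windows with as few as 1 TEAD peak could count here, and 32.1% of all TEAD peaks were such sites. On chromosome 8 the window from 41000001 to 42000000 held 12 TEAD peaks, all 12 solitary and without p65, with folds of 3.84 to 13.9 and a median background of 1.08 fragments.

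Chromosomes differed in how many of their TEAD peaks met the rule. The share was highest on chromosome X, at 49.02% (226 of 461, interval 44.5 to 53.6), chromosome 13, at 47.4% (145 of 306, 41.9 to 53.0), and chromosome 4, at 42.8% (414 of 967, 39.7 to 46.0). It was lowest on chromosomes 22, 20 and 21, at 26.9%, 26.9% and 27.0%, with intervals of 23.2 to 31.0, 23.7 to 30.5 and 22.2 to 32.4. The intervals of chromosomes X, 13, 4 and 18 lay above the share over all chromosomes, 32.1%, and those of 1, 6, 19, 20 and 22 below it. Chromosomes X and 13 also had the fewest TEAD peaks per Mb, 2.99 and 3.24, and chromosome 22 the most, 14.1. Over 23 chromosomes the share and this density had a rho of −0.89, which the spacing limit alone can produce. Among solitary peaks alone, 77.4% (72.3 to 81.8) lacked p65 on chromosome X, against 55.3% (47.1 to 63.3) on chromosome 21. Solitary peaks can still differ in spacing between chromosomes, and its part was not tested. That share had a rho of −0.73 with vehicle p65 peaks per Mb. Chromosomes 13 and X were also among those with the lowest median background at the sites, 1.08 and 1.25 fragments, against 2.16 on chromosome 8. Copy number was not given, and its part was not tested.

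**Figure D5:**
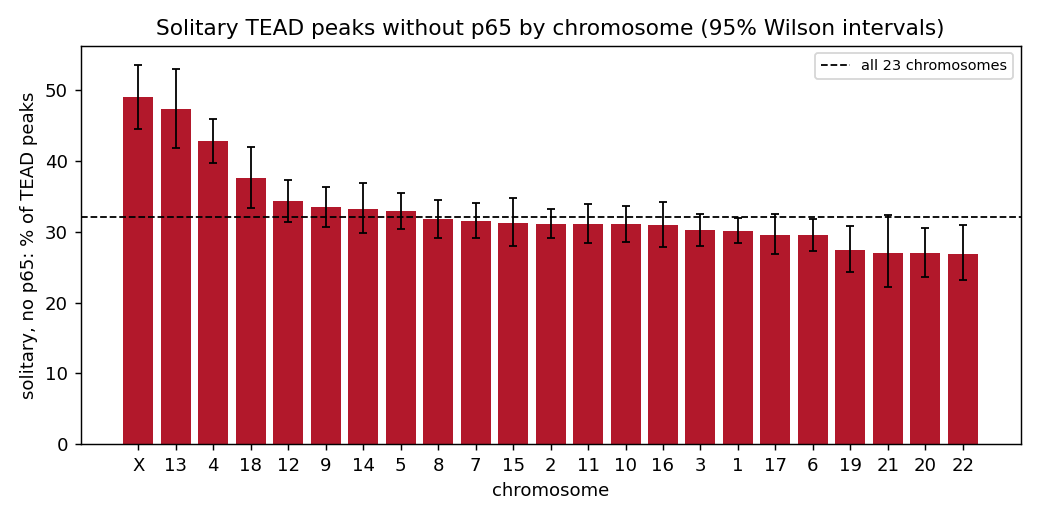
Solitary sites without p65 as a share (%) of the TEAD peaks of each chromosome, in falling order; bars start at 0, error bars are 95% Wilson intervals, and the dashed line is the share over all 23 chromosomes, 32.1%. Chromosomes X, 13, 4 and 18 lie above the line beyond their intervals, and 1, 6, 19, 20 and 22 below it.

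Strength varied little between chromosomes. The median fold of the sites was highest on chromosome 13, at 6.67, where the background was lowest, and lowest on chromosome 15, at 5.29. The strongest site of chromosome 22 had a fold of 14.6, against 65.8 on chromosome 11. Summits lay near the centres of the peaks, 27 bp away at the median and within 52.5 bp for 3 in 4 sites.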

How the data were processed

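The submitters' processing notes name fastp, Bowtie2 (2.4.5), MACS2 and build hg19. For MACS2, its version, settings and control library: not given in the sources used here. The authors deposited 1 narrowPeak list per immunoprecipitate, with a fold (a ratio), a −log10 p-value, a −log10 q-value and a summit position per peak. The deposited whole-number score was not used. Peak numbers skip 96 values in the TEAD list for a reason not stated.

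Overlap means at least 1 bp, and distances are bases between peak edges. Pileup n and background b were solved from fold = (n + 1)/(b + 1) and p, the Poisson tail above n, to within 0.005 of −log10 p. Software was Python 3.11.15, scipy 1.17.1, pandas 2.3.3, numpy 2.4.6 and matplotlib 3.10.9, and the code was tested on simulated data of 1000 peaks. Named regions are the 10 sites of highest fold, the 5 most isolated, the 5 of lowest −log10 q and the 3 on each side of the spacing limit; other regions named were chosen after their values were seen. The sites and lists were chosen with earlier results of these data known. Planned results on gene starts, gene lists and sequence motifs need an hg19 annotation or genome and were not analysed here, so positions carry no gene names. The depth of the libraries is unknown. Alternatives covered spacing, p65 lists, overlap and thresholds.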

Additional observations from a re-analysis of the deposited data

How the results depend on the processing

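Recomputing gave 48 values; 29 lay inside the 95% interval around the main one (for the number of sites, within 1.5 times of it) and 19 outside. With a −log10 q limit of 10 on the TEAD list the rule took 3597 sites. Their median fold was 9.20, their median length 389 bp, and 59.2% had p65 within 50 kb. At a limit of 5 these values were 6.87, 332 bp and 56.0%, over 5921 sites. At a fold of at least 5 they were 7.01, 333 bp and 56.1%, over 5834 sites. Such limits drop weak peaks by construction. Spacing was read again among the peaks kept, so peaks that were crowded before could become sites. With the XMU-MP-1 list as the only p65 list the same values were 6.07, 327 bp and 68.6%. The share with p65 within 50 kb was 60.4% with spacing of 5 kb, 46.3% with 25 kb, and 33.0% when read at 25 kb. The number of sites was 9653 and 5616 at those spacings. The difference between solitary and crowded peaks in the share without p65 was 9.78 points at equal deciles of fold, 9.11 at equal deciles of −log10 q and 7.98 within 5 bins of surrounding vehicle p65 peaks, 3 settings chosen after seeing the data. Beyond what each setting drops or lets in, the cause was not tested. Of the sites, 38 stand beside a skipped peak number, and leaving them out left 7470; including chromosome Y gave 7538; both were also added later. Gene start, gene list and motif alternatives were not run, for want of an hg19 reference. No paired analysis was possible because there are no replicates.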
